A study of Mus musculus with 6 samples.

Results

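The genes described here encode dioxygenases that use 2-oxoglutarate and iron to take methyl groups off DNA, histones and RNA, with closely related hydroxylases. The set was fixed by name as 36 mouse genes in 4 families. They are the TET enzymes, the histone demethylases with a JmjC domain, the ALKBH proteins with FTO, and other hydroxylases. Of these, 35 were measured among the 30739 genes tested, each by 1 array row. The row of Alkbh1 names a second gene as well and was not used. The arrays held RNA of mouse naive CD4 T cells that had been sorted as CD4+CD25-CD62L+CD44- cells, stimulated with antibodies to CD3 and CD28, and kept for 3 days in medium that favours TH17 cells, the helper T cells that secrete IL-17. That medium was IMDM with serum, IL-6, IL-23, TGF-beta and antibodies that neutralize IFN-gamma, IL-4 and IL-12, and it was the same for both groups. The groups differed in glutamine: 3 arrays came from cultures that contained it and 3 from cultures that lacked it. The sources used here give neither the strain, sex and age of the mice nor whether each biological replicate was a separate mouse. The p-values therefore speak only of the spread among the arrays.

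As background, these enzymes split 2-oxoglutarate, a product of glutamine breakdown and of the TCA cycle, into succinate and carbon dioxide each time they oxidize a substrate. Succinate, fumarate and 2-hydroxyglutarate compete with 2-oxoglutarate in many of them, and some also depend strongly on oxygen. TET enzymes oxidize 5-methylcytosine in DNA, JmjC proteins remove methyl groups from histone lysines, and FTO and ALKBH5 remove methyl groups from N6-methyladenosine in mRNA. In T helper cells, TET2 and the H3K27 demethylase KDM6B are known to act at cytokine and lineage genes. The comparison asks how far the transcripts of these enzymes themselves changed in cells that had no glutamine in the medium.

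The cells carried the transcripts of their label. Of 7 measured CD4 T cell markers the group means lay between 11.97 and 17.34 log2, and Cd3d (0.88, adjusted p = 0.0174) and Cd5 (0.51, adjusted p = 0.0118) rose without glutamine. Both were also called after centring the arrays. After quantile normalization Cd3d was called higher (0.76, adjusted p = 0.021) and Cd5 was not called (0.13, adjusted p = 0.468). That scaling also called Cd4 (-0.52, adjusted p = 0.00639) and Cd3e (-0.42, adjusted p = 0.0329) lower, which were not called as deposited or after centring. Of 7 measured TH17 markers, 5 fell without glutamine, while Rora and Batf were not called as deposited. Batf was called lower after centring (-0.59, adjusted p = 0.0185) and after quantile normalization (-0.52, adjusted p = 0.0196), and Rora after neither. The level of Il17a was 12.75 ± 0.41 log2 (SD, n = 3) with glutamine and 5.94 ± 0.47 log2 without it, so the second group carried the TH17 label with far less of its cytokine signal. The 4 measured B cell markers had group means of 3.33 to 4.55 log2, near the array medians of 4.18 to 4.38, and 0 of them were called by limma (0 at an unadjusted p under 0.05). Among 8 myeloid markers Lyz2 (5.80 to 4.14 log2) and S100a8 were lower without glutamine, and among 7 stromal and epithelial markers Epcam was higher (5.17 to 5.75 log2). Among 5 CD8 and NK markers Cd8b1 was lower (8.10 to 7.39 log2). Of the others in that list, none called, Cd8a (3.83 and 3.78 log2), Klrb1c and Ncr1 lay below the array medians, and Eomes stood at 5.24 and 5.28 log2. The part of these cell markers in the results below was not tested. In bulk RNA, fewer cells that express a gene and less RNA per cell cannot be told apart.

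Promoter sequence is shown for 3 members: Alkbh5, which had the largest fall, Kdm7a, which had the largest rise, and Kdm3a, a histone demethylase gene that is a known target of the hypoxia-inducible factors. Each window runs from 250 bases before to 50 bases after an annotated start, 5′ to 3′ on the strand of the gene, from RefSeq on GRCm38.p6. Where a gene had several windows, the one farthest 5′ was taken. Capitals mark the core of the hypoxia response element, searched as ACGTG and GCGTG on both strands.
Alkbh5, chr11:60537433-60537732, plus strand: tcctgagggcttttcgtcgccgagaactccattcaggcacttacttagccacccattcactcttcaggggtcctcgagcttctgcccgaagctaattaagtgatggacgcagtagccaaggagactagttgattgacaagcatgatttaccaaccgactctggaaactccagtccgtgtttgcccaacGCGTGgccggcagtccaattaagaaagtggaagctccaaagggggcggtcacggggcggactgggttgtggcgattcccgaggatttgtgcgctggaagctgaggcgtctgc
Kdm7a, chr6:39206724-39207023, minus strand: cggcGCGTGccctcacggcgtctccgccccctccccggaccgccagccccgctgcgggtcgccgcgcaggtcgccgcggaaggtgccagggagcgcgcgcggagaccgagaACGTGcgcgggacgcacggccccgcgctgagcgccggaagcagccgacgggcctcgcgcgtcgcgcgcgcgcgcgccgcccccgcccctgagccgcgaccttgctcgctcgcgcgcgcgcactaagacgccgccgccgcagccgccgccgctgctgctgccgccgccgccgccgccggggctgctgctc
Kdm3a, chr6:71632868-71633167, minus strand: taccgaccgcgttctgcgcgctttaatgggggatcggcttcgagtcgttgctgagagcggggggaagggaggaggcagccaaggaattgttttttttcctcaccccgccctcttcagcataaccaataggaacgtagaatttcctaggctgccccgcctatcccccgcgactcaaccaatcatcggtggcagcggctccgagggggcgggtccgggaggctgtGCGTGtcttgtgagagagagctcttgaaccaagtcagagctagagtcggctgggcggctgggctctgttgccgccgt

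The Alkbh5 window held 1 match, the Kdm7a window 2 and the printed Kdm3a window 1. The other windows of Kdm3a, at annotated starts farther 3′, each held 0. In Kdm3a the match began at base -27 from the start, and in Alkbh5 at base -62. Such short motifs are common: of 32851 promoter windows in the table, 43.8% held at least 1 match, and of the 9690 windows with at least 60% G and C, 69.2% did. Windows were found for 29 of the 35 measured genes, leaving out any on chromosome 18. A match stood in at least 1 window of 6 of the 8 genes called lower, of 4 of the 5 called higher and of 9 of the 16 not called. Counted by gene in the same way, 46.7% of the 27025 genes in the table held a match, and 70.9% of the 8543 genes with a window of at least 60% G and C held one in such a window. The ACGTG form is also part of the CACGTG motif that other factors bind, which stood in windows of Alkbh7, Kdm4c and Hspbap1.

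The demethylase genes moved in both directions, by less than 1 log2 apart from Alkbh5 (and, after centring the arrays, Jmjd6 at -1.05). A change is the mean log2 level without glutamine minus the mean with it, and a gene was called at an adjusted p under 0.05 (limma, adjusted over all genes tested). Of 35 members, 9 fell, 6 rose and 20 were not called. The share called, 42.9%, stood against 22.3% of all genes tested and 38.7% of the genes whose level lay above that of the median gene. Since 34 of the 35 members lay above it, the share of calls in the set was near that of brighter genes in general. By direction, 13.0% of all genes and 24.9% of the brighter ones fell, and 9.32% and 13.8% rose. With a change of at least 0.5 log2 required as well, 8 of 35 members were called, against 14.1% of all genes. The share of the brighter genes under that rule was not counted, so an excess of the members cannot be read from it. The median change of the members was -0.036 log2, against 0.060 for all genes and -0.058 for the brighter genes, and the median size of a change, whatever its sign, was 0.313 against 0.321 for the brighter genes. The groups did not overlap in 22 members (62.9%), against 43.8% of all genes and 56.2% of the brighter ones.

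**Figure D1:**
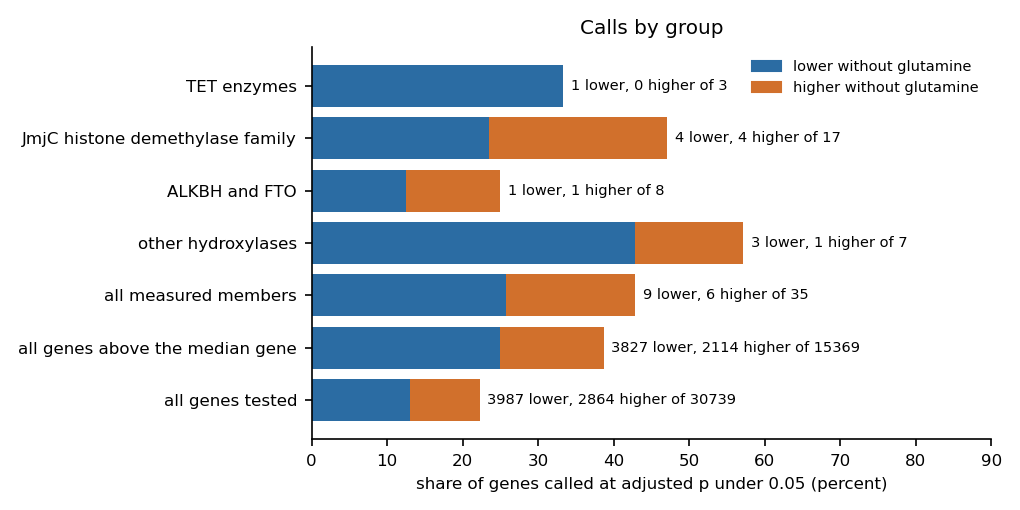
Share of genes called at an adjusted p under 0.05 in each family, in all 35 measured members and in the backgrounds, in percent, split into genes lower and higher without glutamine. All members (42.9%) lie close to all genes above the median gene (38.7%), and on the deposited scale shown 4 histone demethylases were lower and 4 higher.

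The array medians were higher without glutamine (4.33 to 4.38 log2) than with it (4.18 to 4.21 log2). Centring each array on its median lowered the change of every gene by 0.155 log2. After centring 12 members fell and 3 rose (19.9% and 3.96% of all genes), and after quantile normalization 11 fell and 3 rose (17.1% and 4.74%). The shares of the brighter genes called after either scaling were not counted. The median change after centring was -0.191 log2 for the members, against -0.095 for all genes and -0.214 for the brighter genes. By family, 5 histone demethylase genes fell and 3 rose after either scaling, 2 genes of the ALKBH and FTO family fell and 0 rose, and 1 TET gene fell and 0 rose. Of the other hydroxylases 4 fell after centring and 3 after quantile normalization, and 0 rose. The rises of Kdm4a, Alkbh6 and Hspbap1 were the calls lost after either scaling. Kdm2b and Alkbh8 fell after either, and Jmjd8 fell after centring. No member changed direction where it was called on either scale, and the signs of 3 uncalled members differed between the deposited and the centred values.

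**Figure D2:**
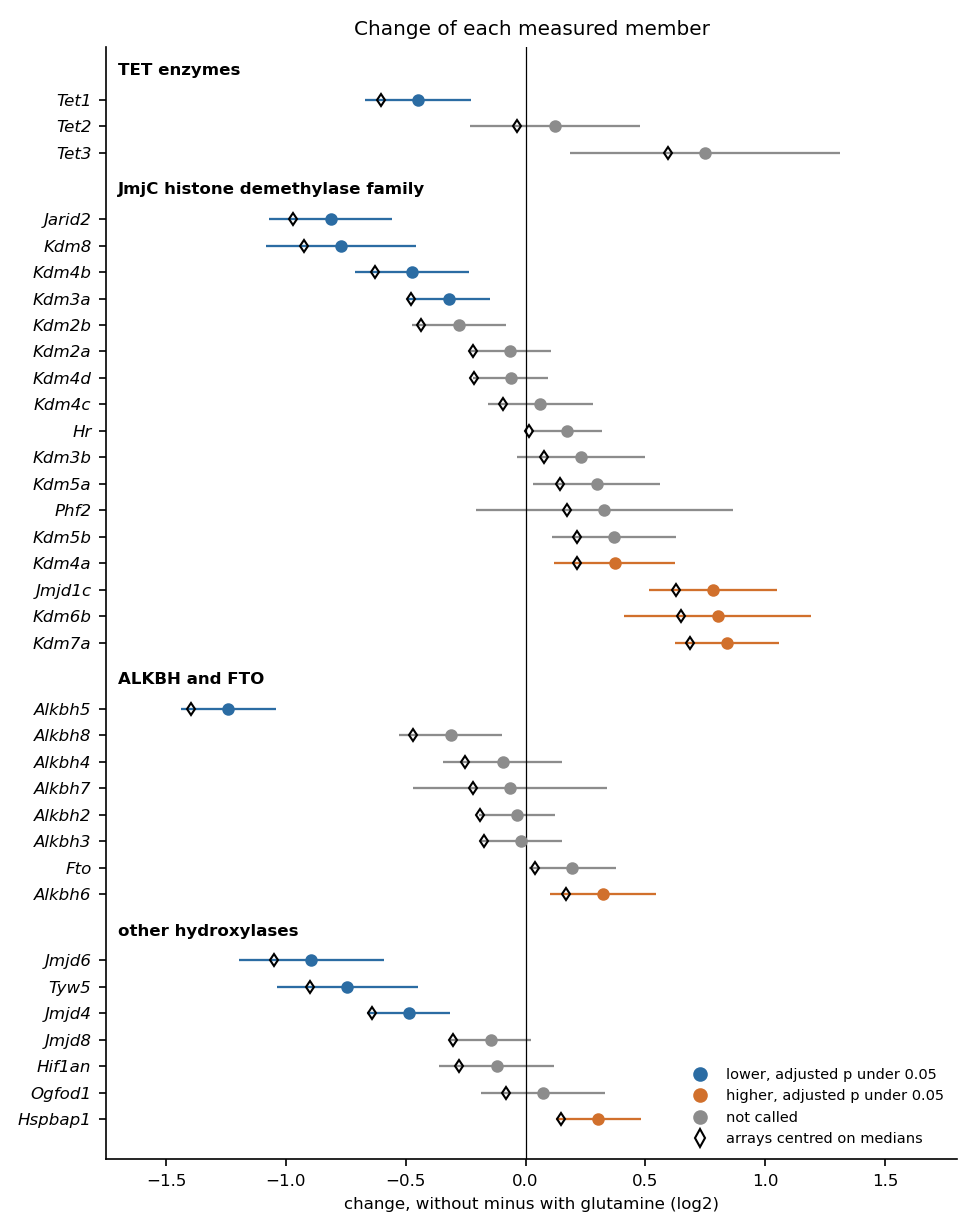
Change of each of the 35 measured members (log2, without minus with glutamine) by family. Filled points with bars are the change on the deposited scale with its 95% interval from limma, coloured by call, and open diamonds are the change after centring the arrays. On the deposited scale Alkbh5 stands alone below -1, and Kdm7a, Kdm6b and Jmjd1c lead the rises.

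Among the TET genes, Tet1 fell, Tet2 was not called and Tet3 was higher without glutamine in each array but missed the threshold. Tet1 read 5.73, 6.005 and 5.84 log2 with glutamine and 5.46, 5.31 and 5.45 log2 without it. The lowest array with glutamine thus stood above the highest without it, and Tet1 fell by 0.45 ± 0.09 (SE, adjusted p = 0.0167). Its call was lost without replicate 2 of the cultures lacking glutamine (adjusted p = 0.0624). In the arrays lacking glutamine Tet1 stood only 0.93 to 1.13 log2 above the array medians. Tet2, the form best known from T cells, read 9.73, 10.21 and 10.26 log2 with glutamine and 10.18, 10.12 and 10.27 log2 without it. These groups overlapped, and the change of 0.12 had a 95% interval of -0.23 to 0.48 (adjusted p = 0.586).

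Tet3 had the widest spread of the family. It read 9.07, 9.07 and 9.62 log2 with glutamine and 9.76, 9.79 and 10.47 log2 without it, and replicate 3 was the highest array of each group. The difference of 0.75 had a 95% interval of 0.19 to 1.31 and an adjusted p of 0.0653. Without replicate 3 of the cultures with glutamine the adjusted p was 0.0353, and without any other single array it was 0.0819 to 0.177. After centring the difference was 0.59 and the groups overlapped.

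On the deposited scale 4 of 17 histone demethylase genes fell and 4 rose, and Kdm7a, Kdm6b and Jmjd1c had the largest rises of the whole set. H3K9 and H3K27 methylation, named below, are marks of silent chromatin. Kdm7a, a demethylase of H3K9 and H3K27, read 8.47, 8.73 and 8.68 log2 with glutamine and 9.54, 9.45 and 9.41 log2 without it. All arrays without glutamine were higher, and the rise was 0.84 ± 0.09 (SE, adjusted p = 0.00164). Kdm6b, which removes H3K27 trimethylation, read 9.37, 9.52 and 9.91 log2 with glutamine and 10.27, 10.30 and 10.63 log2 without it. It rose by 0.80 ± 0.16 (adjusted p = 0.0161), with no overlap, and replicate 3 was again the highest array of each group. Leaving out replicate 2 with glutamine gave an adjusted p of 0.0574 for Kdm6b. Jmjd1c, a protein of the KDM3 family, rose by 0.78 ± 0.11 (adjusted p = 0.00452). Its arrays read 10.67, 10.91 and 11.02 log2 with glutamine and 11.70, 11.52 and 11.73 log2 without it, again with every array lacking glutamine above every array that had it.

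Of the other KDM3 genes Kdm3a fell, and Kdm3b and Hr were not called; their difference from Jmjd1c was not tested. Kdm3a, which removes H3K9 methylation, read 10.91, 11.10 and 10.99 log2 with glutamine and 10.69, 10.68 and 10.67 log2 without it. The arrays without glutamine were nearly equal, and Kdm3a fell by 0.32 ± 0.07 (adjusted p = 0.0225). This small fall depended on the arrays used: the adjusted p was 0.0726 without replicate 2 with glutamine, and 0.0551, 0.0721 and 0.0662 without replicates 1, 2 and 3 of the cultures lacking glutamine. Kdm3b differed by 0.23, with a 95% interval of -0.034 to 0.50 and groups that overlapped. Hr, the corepressor gene hairless, was the member below the median gene, at 3.48 ± 0.01 log2 with glutamine and 3.65 ± 0.03 without it. Its groups did not overlap, and the difference of 0.17 had an interval of 0.025 to 0.32 (adjusted p = 0.0942). After centring the difference of Hr was 0.016, with an interval of -0.13 to 0.16 (adjusted p = 0.88).

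**Figure D3:**
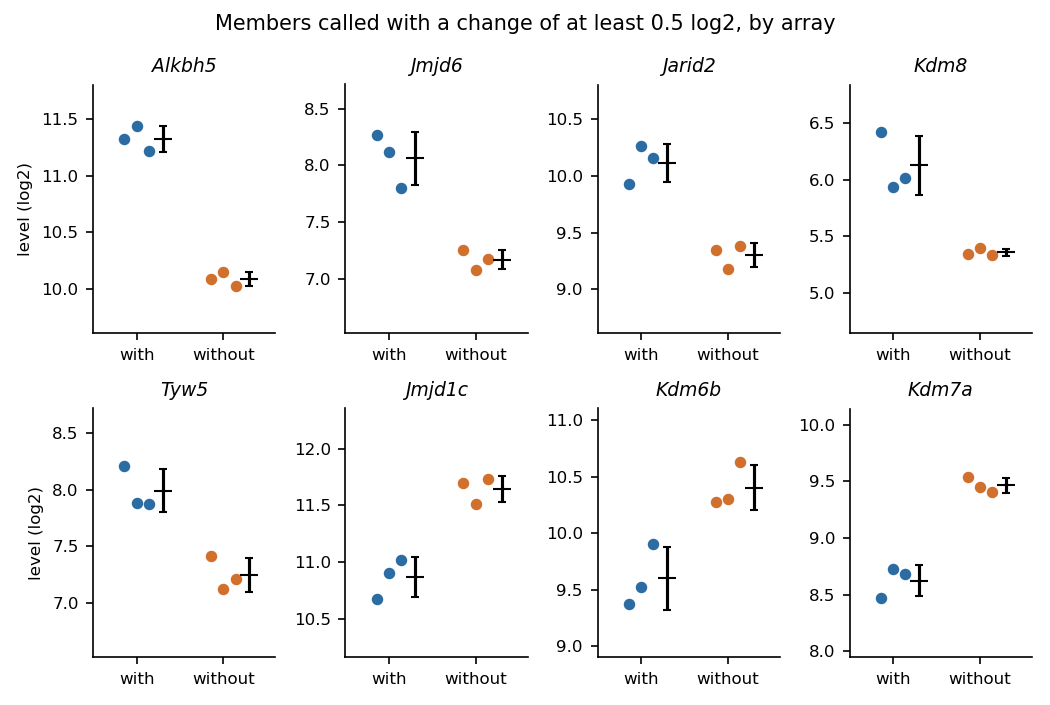
Level (log2) in each array of the 8 members called with a change of at least 0.5 log2. Points are the 3 arrays of a group in the order of their replicate numbers, the bar beside them is the mean ± SD, and each panel spans the same 2.2 log2. In all 8 the groups stand apart, with the 5 falls first and the 3 rises last.

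The falls among the histone demethylases included members that are not typical demethylases. Jarid2, a JmjC protein without demethylase activity that helps to recruit the Polycomb complex PRC2, read 9.93, 10.26 and 10.15 log2 with glutamine and 9.34, 9.18 and 9.38 log2 without it. The groups stood apart, and Jarid2 fell by 0.81 ± 0.11 (adjusted p = 0.00338). Kdm8, also known as JMJD5 and better described as an arginine hydroxylase, read 6.42, 5.94 and 6.02 log2 with glutamine and 5.34, 5.39 and 5.33 log2 without it, a fall of 0.77 ± 0.13 (adjusted p = 0.00858). The 3 arrays without glutamine lay within 0.1 log2 of each other and all below those with glutamine. In them Kdm8 stood only 0.98 to 1.02 log2 above the array medians.

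Of the H3K9 and H3K36 demethylases of the KDM4 family, Kdm4b fell and, on the deposited scale, Kdm4a rose. Kdm4b read 7.23, 7.45 and 7.14 log2 with glutamine and 6.71, 6.84 and 6.86 log2 without it, and fell by 0.47 ± 0.10 (adjusted p = 0.0176). Its adjusted p was 0.0548 without replicate 1 and 0.0542 without replicate 2 of the cultures lacking glutamine. Kdm4a rose by 0.37 ± 0.11 with an adjusted p of 0.0494, just inside the threshold, and each of the 6 fits that left out 1 array lost the call (adjusted p 0.0542 to 0.122). Kdm4c and Kdm4d differed by 0.061 and -0.061 and were not called.

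The set holds Kdm5a and Kdm5b of the KDM5 genes, whose products remove H3K4 methylation, a mark of active promoters, and neither was called. Kdm5b read 10.59, 10.95 and 10.70 log2 with glutamine and 11.21, 11.10 and 11.05 log2 without it. The groups did not overlap, and the difference of 0.37 stood at an adjusted p of 0.0522. Without replicate 2 with glutamine the adjusted p was 0.0267, without any other single array it was 0.0913 to 0.133, and after centring the difference was 0.21 (adjusted p = 0.233) with overlapping groups. Kdm5a differed by 0.30 (adjusted p = 0.105). The H3K36 demethylase gene Kdm2a differed by -0.066 as deposited (95% interval -0.24 to 0.11). After centring it differed by -0.22 (-0.41 to -0.033, adjusted p = 0.0895), with groups that did not overlap. Kdm2b, which links CpG islands to Polycomb complexes, differed by -0.28 as deposited (adjusted p = 0.0534) and by -0.43 after centring (adjusted p = 0.0118). Phf2, an H3K9 demethylase, varied most between replicates, with an SD of 0.42 without glutamine, and its difference of 0.33 had an interval of -0.21 to 0.86.

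**Figure D4:**
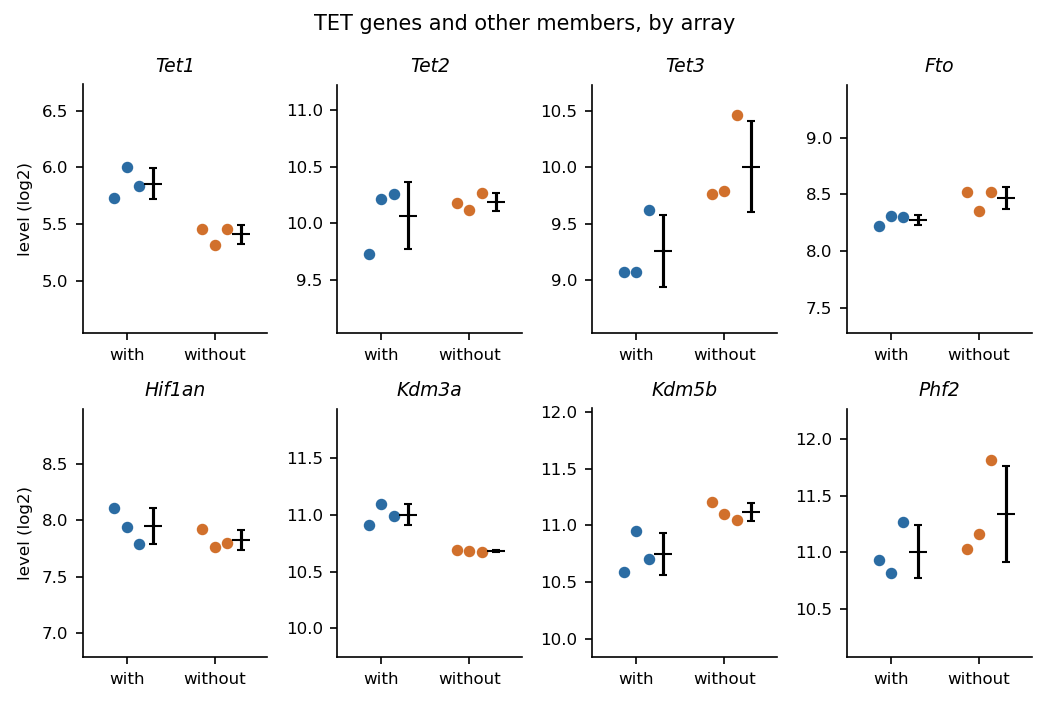
Level (log2) in each array of the TET genes and of 5 other members, drawn like the panels of called members. Tet1 and Kdm3a are lower without glutamine in every array, Tet2 and Hif1an overlap, and replicate 3 is the highest array of each group for Tet3 and Phf2.

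Of the enzymes that act on RNA methylation, Alkbh5 fell and Fto was not called. Alkbh5 removes the methyl group of N6-methyladenosine in mRNA. It read 11.32, 11.44 and 11.22 log2 with glutamine and 10.08, 10.15 and 10.03 log2 without it. More than 1 log2 separated the lowest array with glutamine from the highest without it. The fall was 1.24 ± 0.08 (SE, adjusted p = 0.000317), in size beyond 97.5% of all genes tested, and it was called under every alternative tried. Fto, the other known eraser of this mark, read 8.22, 8.31 and 8.30 log2 with glutamine and 8.52, 8.36 and 8.52 log2 without it. The groups did not overlap, with the arrays lacking glutamine higher, and the difference of 0.19 had a 95% interval of 0.013 to 0.38 (adjusted p = 0.118). After centring it was 0.039 and the groups overlapped.

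The ALKBH genes for DNA repair and tRNA showed smaller differences than Alkbh5. Alkbh2 and Alkbh3, which repair alkylated bases, differed by -0.036 and -0.018, with intervals within 0.2 log2 of 0. Alkbh8, which modifies the wobble uridine of tRNA, read 10.20, 10.11 and 10.24 log2 with glutamine and 10.02, 9.83 and 9.76 log2 without it. The groups did not overlap, and the difference of -0.31 stood at an adjusted p of 0.0503. Without replicate 1 of the cultures lacking glutamine the adjusted p was 0.0289, and without any other single array it was 0.0873 to 0.143. Alkbh6 rose by 0.32 ± 0.09 with an adjusted p of 0.0495. That call was lost in every fit without 1 array except the one without replicate 1 with glutamine. The adjusted p for Alkbh6 was 0.145 and 0.113 without replicates 2 and 3 with glutamine, and 0.117, 0.0588 and 0.134 without replicates 1, 2 and 3 of the cultures lacking it. Alkbh4 and Alkbh7, the latter a mitochondrial protein, differed by -0.096 and -0.066 and were not called.

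Of the other hydroxylases, 3 of 7 fell and 1 rose. Jmjd6, a lysine hydroxylase of splicing factors, read 8.27, 8.12 and 7.80 log2 with glutamine and 7.25, 7.08 and 7.18 log2 without it. It fell by 0.89 ± 0.13 (adjusted p = 0.00451), the largest fall after Alkbh5, with groups that stood apart. Tyw5, which hydroxylates the modified base wybutosine in phenylalanine tRNA, read 8.21, 7.88 and 7.88 log2 with glutamine and 7.41, 7.12 and 7.20 log2 without it, a fall of 0.74 ± 0.12 (adjusted p = 0.00772). Jmjd4, a lysine hydroxylase of the translation termination factor eRF1, fell by 0.49 ± 0.07, from 6.44 ± 0.09 to 5.95 ± 0.04 log2 (SD, n = 3, adjusted p = 0.00529). Each of these 3 falls was called under every alternative fit.

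The remaining hydroxylases showed smaller differences. Hif1an encodes FIH, the asparagine hydroxylase that restrains hypoxia-inducible factors. It read 8.11, 7.94 and 7.79 log2 with glutamine and 7.93, 7.76 and 7.80 log2 without it, with overlapping groups. The difference was -0.12, with an interval of -0.36 to 0.12. After centring it was -0.28, with an interval of -0.54 to -0.017 (adjusted p = 0.117), and the groups still overlapped. Ogfod1, which hydroxylates a proline of the small ribosomal subunit, differed by 0.073. Jmjd8 differed by -0.15 as deposited (adjusted p = 0.185) and by -0.30 after centring (adjusted p = 0.0326). Hspbap1 rose by 0.30 ± 0.07 (adjusted p = 0.0291), but leaving out any of the 6 arrays gave an adjusted p of 0.0555 to 0.074. Over all families, the interval of 15 of the 20 uncalled members lay within 0.5 log2 of 0 on the deposited scale, and after centring the same count, 15 of 20, held for a partly different set of uncalled members.

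Genes around the set were counted in the same fit. Among 15 measured 2-oxoglutarate dioxygenases that act on proline, lysine and other substrates, 7 fell and 0 rose by limma (0 also at an unadjusted p under 0.05), with a median change of -0.35. The changes of the oxygen sensor gene Egln1 (-2.05), Asph (-1.78) and the collagen hydroxylase gene P4ha1 (-1.72) were each larger than that of Alkbh5. Of the dioxygenase genes, Egln1, Egln3, P4ha1 and P4ha2 also stand in a list of 18 hypoxia-inducible genes and are counted in both. Of these 18 genes 16 fell and 0 rose (also 0 at an unadjusted p under 0.05), led by Bnip3 (-4.30), Ndrg1 (-3.78) and Ak4 (-3.15). Of 18 genes of enzymes and a carrier that make, use or move 2-oxoglutarate, 8 fell and 2 rose as deposited, with falls of Idh1 (-2.35), Dld (-1.07) and Dlst (-0.86). By limma after centring, and also after quantile normalization, 9 of these genes fell and 0 rose. Of 7 JmjC genes outside the named set, Phf8 (0.35) and Kdm5d (0.28) rose as deposited, 2 rose after quantile normalization, and after centring limma called 0 (1 lower at an unadjusted p under 0.05). Of 5 genes of the flavin-dependent demethylases, which need no 2-oxoglutarate, and of their CoREST partners, 1 fell and 0 rose (also 0 at an unadjusted p under 0.05), and 2 fell after centring. The partner gene Rcor3 fell by 0.31 ± 0.08 (adjusted p = 0.0305). The brightest, Rcor1 and the demethylase gene Kdm1a, differed by -0.068 and -0.013 and were not called, and Kdm1b was called after centring (-0.31, adjusted p = 0.0287). The shares called were 46.7% of the other dioxygenase genes, 88.9% of the hypoxia-inducible genes, 55.6% of the 2-oxoglutarate metabolism genes, 28.6% of the outside JmjC genes and 20% of the flavin list, beside 38.7% of the brighter genes.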

How the data were processed

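Per the labels' protocols, total RNA was extracted with Trizol and labelled with the GeneChip WT PLUS kit. The submitters' processing notes name RMA and Transcriptome Analysis Console 4.0, with which the authors made the deposited log2 expression levels. The options and array annotation of that step are, in the sources used here, not given. Each array held values above 16 log2 (695 to 887 rows), so a further step on the scale is possible and changes are given as log2 differences, not as folds.

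Gene names came from the platform annotation, updated through RefSeq gene IDs. The table has 65956 rows. A single gene was named by 31213 of them and more than 1 gene by 1537, which leaves 33206 without a name here. A symbol with several rows took the row with the highest mean, with no filter on dim genes. The row of Kdm7a also lists its synonym. Columns of other samples numbered 0.

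Each of 30739 genes was tested with limma 3.58.1 (lmFit, eBayes, two-sided) in R 4.3.3, without covariates, with Benjamini-Hochberg adjustment over all genes and a threshold of 0.05. The fit was tested on simulated data. Alternatives were centring, quantile normalization, genes above the median gene, the mean over rows, trend and robust, array weights, the replicate number as a block, stricter call rules and leaving out each array. The number of arrays limits the precision. The members and lists were chosen with earlier results of these data known. By rule, each array is printed for members called with a change of at least 0.5 log2 and for Tet1, Tet2, Tet3, Fto, Alkbh5, Kdm6b, Jmjd6 and Hif1an; arrays of Kdm3a, Kdm4b, Kdm5b and Alkbh8 were added after their values were seen. Of neighbouring lists, up to 3 called members with the largest changes are named, and the 2 brightest where fewer than 2 passed; Kdm1b was added after its values were seen. Plots used matplotlib 3.10.9 (Python 3.11.15).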

Additional observations from a re-analysis of the deposited data

How the results depend on the processing

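The 9 falls among the members became 12 after centring, 11 after quantile normalization and 5 with a change of at least 0.5 log2 required, and ranged from 6 to 9 when 1 array was left out. The 6 rises became 3 after centring, 3 after quantile normalization, 2 at an adjusted p under 0.01 and 3 with at least 0.5 log2 required, and ranged from 3 to 4 when 1 array was left out. Of 454 recomputed member changes, 38 lost a call, 16 gained one and 0 turned direction with a call. Of the 15 called members, 8 were called under every alternative fit. With the replicate block, 8 members fell and 4 rose: Kdm3a (adjusted p = 0.051), Kdm4a (0.0772), Alkbh6 (0.0625) and Hspbap1 (0.0518) lost their calls and Tet3 gained one (0.00626). Deviations of same-numbered arrays correlated by 0.0654, -0.233 and 0.275, and those of differently numbered arrays by -0.333 to 0.299. With 3 arrays per group, these values cannot settle whether the arrays were paired. The cause of the differences between the alternatives was not tested.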

Other observations

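Genes that place, read or otherwise remove the same marks were counted in lists that hold no member of the set. All measured genes of these lists lay above the median gene, where 38.7% of genes were called. Of 27 measured histone methyltransferase and Polycomb genes, 8 rose and 4 fell as deposited, and 3 rose and 5 fell after centring. The share called, 44.4%, was near that of brighter genes. The H3K4 methyltransferase gene Kmt2a rose from 10.75 ± 0.37 to 12.15 ± 0.32 log2 (SD, n = 3, limma adjusted p = 0.00735), Kmt2c rose by 1.13, and the H3K9 methyltransferase gene Suv39h2 fell by 0.62. Of 10 genes of DNA methylation and its removal, 5 fell and 1 rose (60% called). Uhrf1, which brings DNMT1 to replicated DNA, fell from 12.06 ± 0.07 to 10.70 ± 0.16 log2 (adjusted p = 0.000388), the glycosylase gene Mbd4 fell by 0.80, and the methyltransferase gene Dnmt3a rose by 0.65. Of 13 genes that write or read N6-methyladenosine, 3 fell and 0 rose by limma (1 rose at an unadjusted p under 0.05), and 7 fell after centring. The share called as deposited, 23.1%, was below that of brighter genes. The largest of these falls were those of the reader genes Igf2bp3 (-0.84) and Ythdf1 (-0.54) and of Rbm15 (-0.46), part of the writer complex. These lists were run under the scaling alternatives and not with arrays left out.

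In 6 of the 35 members, replicate 3 was the highest array both with and without glutamine: Jmjd1c, Kdm3b, Kdm6b, Phf2, Tet2 and Tet3. The share of all genes with this order was not counted, so the count cannot be read as a trait of the members.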
